A study of Homo sapiens with 6 samples.

Results

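The genes described here are 9 keratin genes (KRT8, KRT18, KRT7, KRT19, KRT5, KRT14, KRT17, KRT80 and KRT81) and the vimentin gene VIM. They were taken by name, as intermediate filament genes of epithelial cells and of their more mesenchymal states, by a rule that uses no measured value, though the set was put together with earlier results of these data known. How many members changed is therefore a description of this set. All 10 symbols were found among the 78932 rows of a table of gene counts. The table covers 6 poly(A) RNA libraries of cells labelled HCC1937, an established human breast cancer cell line of the triple-negative kind. Of these, 3 libraries were controls and 3 came from cells given 8 nM docetaxel for 24 h. Docetaxel is a taxane, a drug that binds tubulin and stabilises microtubules. What the control cells received is not said beyond the word for control. The data come from 1 cell line and 1 dose and time, and the labels call the libraries of a group biological replicates without naming a separate culture or day for each. The p-values therefore measure the spread between these libraries, which may be technical in part.

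Keratins build the intermediate filaments of epithelial cells. A filament forms only from heterodimers of an acidic type I keratin and a basic type II keratin, so the genes are expressed in pairs. KRT8 (type II) and KRT18 (type I) are the pair of simple epithelia and of luminal breast cells, joined there by KRT7 (type II) and KRT19 (type I). KRT5 (type II) and KRT14 (type I) are the pair of basal and myoepithelial cells, and KRT17 (type I) is found in basal-like and stressed epithelium. VIM encodes vimentin, the type III filament protein of mesenchymal cells, which assembles without a keratin partner and is also made by many cultured carcinoma lines of the basal kind.

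The libraries held between 38622062 and 41675186 counts. A gene with 0 counts could have had up to 3 at this depth, which is 0.0720 to 0.0777 CPM (counts per 1e6 of a library's total), and such limits cover counting error only. The test kept 18040 genes, which held 99.9% of all counts. Among the low values of the table, 59.8% of the 72034 values from 1 to 10 were even, with 19980 values of 2 against 13493 values of 1. Both mates of a read pair may thus have been counted singly in part, which was not tested, and a low count then stands for fewer molecules than its number. Epithelial markers outside the keratins were uneven: ESRP2 and ELF3 had means of 70.2 and 45.8 CPM, whereas EPCAM had 16 counts, CDH1 164 and TP63 6 in all libraries together. Of the mesenchymal markers, S100A4, COL5A1 and COL1A1 averaged 257, 152 and 140 CPM, and CDH2 had 8 counts and FN1 187. HCC1937 is described as an epithelial line, so the near absence of EPCAM, and of KRT19, KRT5 and KRT14 below, goes against what the label leads one to look for. Whether the libraries come from that line was not tested, and the values hold for cells labelled HCC1937. PTPRC, which marks leukocytes, had 1 count and MS4A1, which marks B cells, had none.

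Of the members, the simple epithelial keratins KRT8, KRT18 and KRT7 had the highest levels, followed by VIM, whereas the simple keratin KRT19 was among the lowest. Levels between genes were set side by side as counts per base of the deposited gene length, scaled to 1e6 per library. On this scale KRT8 stood at 745 ± 16.8 in control and 850 ± 3.1 with docetaxel (SD, n = 3 each), 115th of all 78932 rows by its mean over the 6 libraries. KRT18 stood at 583 ± 17.03 and 629 ± 23.7, KRT7 at 294 ± 10.5 and 370 ± 11.6, and VIM at 202 ± 3.1 and 189 ± 5.0. KRT80 followed at 20.5 ± 1.6 and 24.3 ± 0.55, KRT17 at 4.56 ± 0.70 and 6.63 ± 0.19, and KRT81 at 2.29 ± 0.38 and 3.36 ± 1.12. From KRT8 down to KRT17 no member's range over the 6 libraries met that of the next member. The ranges of KRT17 and KRT81 met, since KRT81 in docetaxel replicate 2 lay above KRT17 in control replicates 1 and 3. Those of KRT14, KRT19 and KRT5 reached at most 0.380 and met each other. With the length of the longest annotated transcript in place of the deposited length, KRT8 averaged 1432, KRT18 665, KRT7 566 and VIM 283 over the 6 libraries. KRT18 and KRT7 then overlapped. All 55 keratin genes together took 0.297% to 0.308% of the counts in the control libraries and 0.344% to 0.351% in the docetaxel libraries. Between 94.9% and 95.6% of these keratin counts belonged to KRT8, KRT18 and KRT7. Vimentin took 0.0368% to 0.0376% of all counts in control and 0.0344% to 0.0355% with docetaxel.

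**Figure D1:**
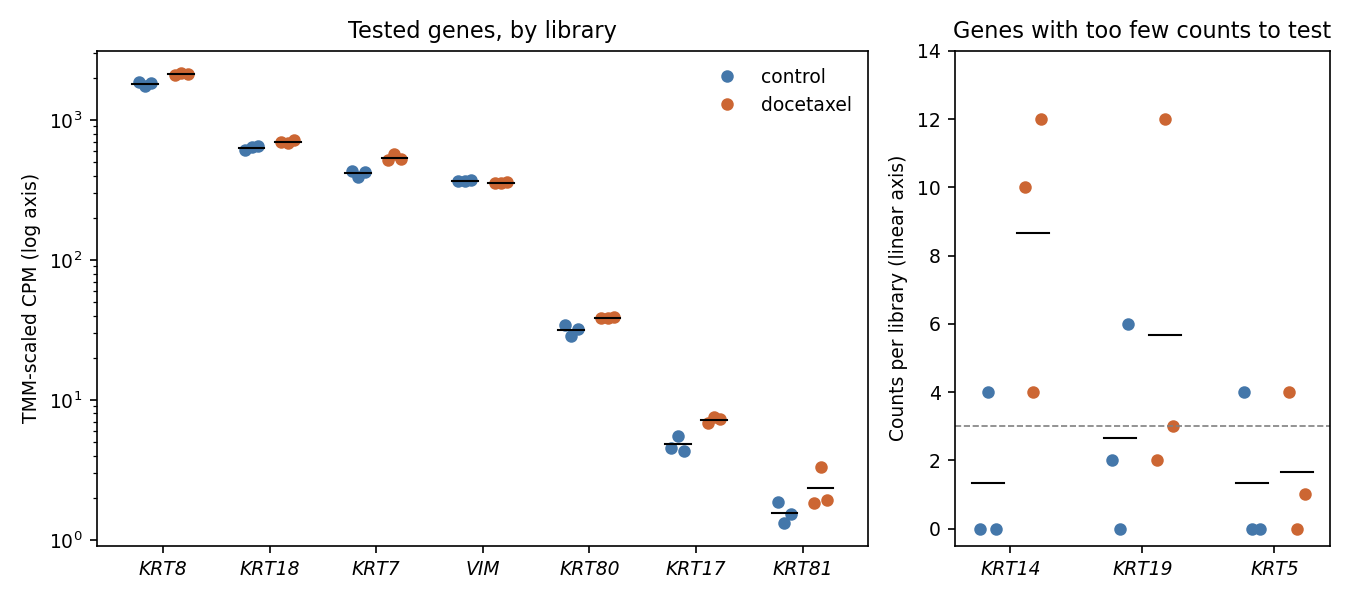
Values of the 10 genes in each library, with points for libraries and black lines for group means. The left panel gives TMM-scaled CPM on a log axis, which is not per length, for the 7 tested genes, and the right panel gives counts on a linear axis for KRT14, KRT19 and KRT5, with a dashed line at 3 counts. Docetaxel points lie above all control points for KRT8, KRT18, KRT7, KRT80 and KRT17 and below them for VIM.

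Docetaxel was compared with control in 1 test across all tested genes (edgeR quasi-likelihood test, two-sided, Benjamini-Hochberg adjustment over 18040 genes, called at an adjusted p under 0.05). Here CPM are scaled by TMM, which corrects library totals for composition. The simple keratins KRT8, KRT18 and KRT7 and the less abundant KRT17 and KRT80 were higher with docetaxel, by 0.15 to 0.58 on the log2 scale, and no member was called lower. Of the 10 genes, 7 had enough counts to test and 5 of these were called higher, against 9.14% of all tested genes. None of the 7 was called lower, against 7.82% of all tested genes. Counted by an unadjusted p below 0.05, 6 members were higher and 0 lower, against 2717 higher and 2419 lower of the 18040 tested genes. The members' calls by DESeq2, which gave KRT81 no adjusted p, and by limma-voom were 5 higher and 0 lower. The libraries of the groups did not overlap in 6 of the 7, against 32.0% of all tested genes. As a median the log2 fold change over the 7 was 0.29, against 0.01 over all tested genes. Of all calls, 53.9% were higher, and with scaling by library size alone 37.0% were. Each of the 5 genes was still called higher under that scaling. In bulk libraries like these, more cells of a kind and more RNA per cell cannot be told apart.

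The changes moved with GC content. Tested genes were split into quintiles by GC content of the longest transcript. In the quintile from 51.9% to 58.3%, which holds KRT8, KRT18, KRT80 and KRT17, the log2 fold change had a median of 0.10, and 446 of 3284 genes were called higher. In the quintile of the highest GC content, which holds KRT7 and KRT81, the median was 0.18 and 1038 of 3284 genes were called higher. VIM lies in the middle quintile, with a median of 0.01. The comparison was therefore also fitted with offsets that remove, in each library, the trend of log2 CPM on GC content and gene length. With these offsets 496 genes were called higher, 293 were called lower, and 2 of the 7 members, KRT8 and KRT7, were called higher. The members' median fell to 0.18 on the log2 scale, against 0.01 over all tested genes. Whether GC content had a part in the members' changes was not tested beyond these values, which stand beside each gene.

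**Figure D2:**
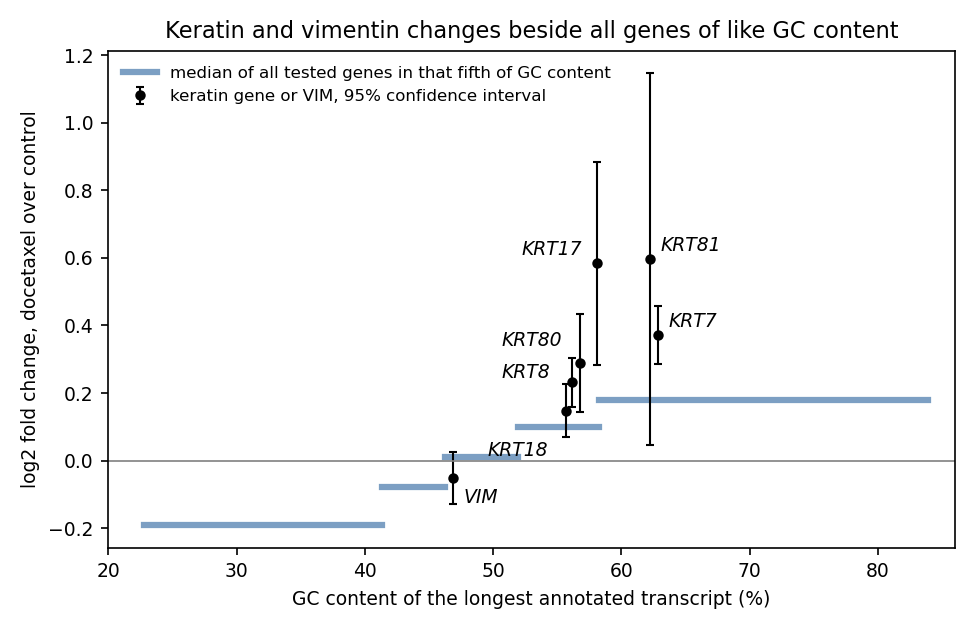
log2 fold change of docetaxel over control (vertical axis) against GC content of the longest annotated transcript in percent (horizontal axis). Black points are the 7 tested keratin genes and VIM with 95% confidence intervals, and blue bars are the medians of all tested genes in each quintile of GC content. The 6 keratin genes sit between 55.7% and 62.9% GC, where the medians are 0.10 and 0.18, and VIM at 46.9%, where the median is 0.01.

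KRT8 encodes the type II partner of the simple keratin pair (ENSG00000170421, GRCh38 chromosome 12, 52897187 to 52949954, minus strand). It had 73178, 74193 and 75710 counts in the control libraries, in the order of their replicate numbers, and 80550, 82400 and 82007 in the docetaxel libraries, in the same order. In TMM-scaled CPM these were 1857, 1743 and 1835 in control and 2094, 2162 and 2124 with docetaxel, so that every docetaxel library lay above every control library. The rise from 1812 ± 60.6 to 2127 ± 34.1 CPM (SD, n = 3 each) was 1.17-fold, or 0.23 ± 0.035 (SE) in log2 fold change, with an edgeR adjusted p = 3.55e-05. With the GC and length offsets it was 0.13 (edgeR adjusted p = 0.00397).

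KRT18, the type I partner (ENSG00000111057, chromosome 12, 52948871 to 52952901, plus strand), is the neighbour of KRT8. It measured 613, 637 and 649 CPM in control and 693, 687 and 724 CPM with docetaxel, and the groups did not overlap. Its log2 fold change was the smallest among the called members, at 0.15 ± 0.038 (SE, 1.108-fold, edgeR adjusted p = 0.00597), from 633 ± 18.2 to 701 ± 19.5 CPM (SD, n = 3 each). The call was lost with the GC and length offsets, at 0.04 (adjusted p = 0.604), and without control replicate 1 (adjusted p = 0.0674) or docetaxel replicate 3 (adjusted p = 0.0786). The annotated exons of KRT18 and KRT8 share 525 bases on opposite strands, 16.3% of the exon bases of KRT18 and 7.63% of those of KRT8. Whether the counting used strand is not given in the sources used here, so counts in that stretch cannot be assigned to one gene.

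Both partners also have many processed pseudogenes. A 50-base window of the KRT8 coding sequence occurs in the transcripts of another gene at 45.6% of positions and a 150-base window at 0 of 1384. For KRT18 the shares are 58.0% and 13.6%. KRT8 shares the most 50-base windows with KRT18 and is the only gene that shares the longer ones. Windows were matched on both strands, and the exons of KRT18 and KRT8 overlap on opposite strands, as given above. The aligned coding bases of KRT8 and KRT18 are only 66.3% identical. KRT8 and its pseudogene KRT8P33 share 95.8% of 1422 aligned bases. The 51 rows of KRT8 pseudogenes held 3913 counts in all, between 0.768% and 0.961% of the KRT8 counts of each library, and the 68 rows of KRT18 pseudogenes held 0.460% to 0.720% of the KRT18 counts. Of these rows 5 and 6 were tested, and edgeR called 0 of the 11 in either direction. KRT8P3, the row with the most counts among them, ranged from 267 to 327 counts in control and from 214 to 355 with docetaxel, a log2 fold change of 0.00 (adjusted p = 0.998). KRT8P33 was at 0.24, KRT8P42 at -0.30 and KRT18P60 at 1.53, with edgeR adjusted p = 0.134 for the last, which passed without control replicate 1 (adjusted p = 0.0399).

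KRT7, a type II keratin of glandular and ductal epithelium (ENSG00000135480, chromosome 12, 52232520 to 52252186, plus strand), had the smallest p of the members. It measured 432, 394 and 423 CPM in control and 515, 569 and 531 CPM with docetaxel, with docetaxel replicate 2 the highest. The rise from 416 ± 19.4 to 538 ± 27.4 CPM (SD, n = 3 each) was 1.29-fold, or 0.37 ± 0.042 (SE) in log2 fold change, with an edgeR adjusted p = 4.02e-07. With the offsets it was 0.19 (edgeR adjusted p = 5.10e-04). KRT7-AS, an antisense gene that shares 282 exon bases with KRT7, measured 4.35 ± 0.20 CPM in control and 4.33 ± 0.15 CPM with docetaxel, or -0.01 in log2 fold change (edgeR adjusted p = 0.986).

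Ratios among the simple keratins were also taken within each library. The ratio of KRT7 to KRT8 per kilobase was 0.400, 0.390 and 0.397 in control and 0.423, 0.453 and 0.430 with docetaxel, with no overlap. KRT7 to KRT18 was 0.505 ± 0.033 in control and 0.590 ± 0.039 with docetaxel, again with no overlap. The ratio of the partners KRT18 to KRT8 was 0.740, 0.820 and 0.792 in control and 0.742, 0.713 and 0.764 with docetaxel, so that the groups overlapped. These ratios were not tested. Summed over the 26 type II and the 28 type I keratin genes, the type II level per length was 1.55, 1.44 and 1.47 times the type I level in control and 1.63, 1.65 and 1.60 times with docetaxel. With the lengths of the longest transcripts these ratios were 2.50 ± 0.11 and 2.72 ± 0.06, so the summed type II level exceeded the type I level with either length.

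KRT17, a type I keratin of basal-like and wounded epithelium (ENSG00000128422, chromosome 17, 41619441 to 41624842, minus strand), was low but higher with docetaxel. It had 180, 237 and 178 counts in control and 264, 286 and 282 with docetaxel, which did not overlap. The rise from 4.82 ± 0.66 to 7.22 ± 0.33 CPM (SD, n = 3 each) was 0.58 ± 0.147 (SE) in log2 fold change, with an edgeR adjusted p = 0.00520. With the offsets it was 0.45 and missed the threshold (adjusted p = 0.0727). KRT80, a type II keratin of many epithelia (ENSG00000167767, chromosome 12, 52168996 to 52192000, minus strand), measured 34.1, 28.7 and 32.0 CPM in control and 38.5, 38.4 and 38.9 CPM with docetaxel. Its spread was narrower with docetaxel, and the rise was 1.22-fold, or 0.29 ± 0.071 (SE) in log2 fold change, with an edgeR adjusted p = 0.00424. With the offsets it was 0.18 and missed the threshold (adjusted p = 0.125). All 5 calls were lost when edgeR tested against a fold of 1.5 with glmTreat, which called 0 members, and 0 also by its unadjusted p. A rise of more than 1.5-fold is thus not shown for any member.

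KRT14, the type I basal keratin (ENSG00000186847, chromosome 17, 41582279 to 41586921, minus strand), is a near neighbour and relative of KRT17, with 85.2% identity over the aligned coding bases. A 50-base window of KRT14 occurs in another gene, KRT16 and its pseudogenes above all, at 24.6% of positions, against 17.2% for KRT17. The stretches show how KRT17, which had 1427 counts over all libraries, differs from KRT14, which had 30, near the middle of the aligned coding sequences. These stretches are more alike than the aligned coding sequences as a whole. They cover bases 571 to 660 of the KRT17 coding sequence and 664 to 753 of that of KRT14 (GENCODE release 29 on GRCh38), with the 5 differing bases in capitals.
KRT17: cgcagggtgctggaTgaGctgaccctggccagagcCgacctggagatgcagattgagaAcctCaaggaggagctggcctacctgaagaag
KRT14: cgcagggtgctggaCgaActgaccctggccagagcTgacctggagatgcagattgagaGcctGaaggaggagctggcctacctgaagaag
KRT14 had 0, 4 and 0 counts in control and 10, 4 and 12 with docetaxel, too few for the test's filter. Most of these values lie at or near the limit of 3 counts. With no filter on low counts its unadjusted p was 0.0343 and its edgeR adjusted p 0.291. Leaving out a library can let KRT14 through the filter, and without control replicate 2, the only control library with counts of this gene, its edgeR adjusted p was 0.0390. Without control replicate 1 or 3 or docetaxel replicate 2 it was 0.241, 0.259 and 0.0893.

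KRT5, the type II partner of KRT14 (ENSG00000186081, chromosome 12, 52514575 to 52520687, minus strand), had 4, 0 and 0 counts in control and 4, 0 and 1 with docetaxel. KRT19, the small type I keratin of ducts and luminal cells (ENSG00000171345, chromosome 17, 41523617 to 41528308, minus strand), had 2, 0 and 6 counts in control and 2, 12 and 3 with docetaxel. With no filter their edgeR adjusted p were 0.961 and 0.665. No difference between the groups was detectable for either gene at this depth. Only 2.09% of the 50-base windows of KRT19 and 5.75% of those of KRT5 occur in another gene. The basal pair and KRT19 were thus at or near the limit of 0 counts in libraries where KRT8, KRT18 and KRT7 each had at least 16795 counts.

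KRT81, a type II hair keratin that is also transcribed in breast cancer lines (ENSG00000205426, chromosome 12, 52285913 to 52291534, minus strand), had 73, 56 and 63 counts in control and 71, 127 and 74 with docetaxel. In CPM the groups overlapped, from 1.32 to 1.85 in control and from 1.85 to 3.33 with docetaxel, and docetaxel replicate 2 stood apart. The log2 fold change was 0.60 ± 0.27 (SE) with a 95% confidence interval from 0.05 to 1.15 and did not pass the test (edgeR adjusted p = 0.136). Without docetaxel replicate 2 it was 0.26 (adjusted p = 0.677), and with the offsets 0.41 (adjusted p = 0.490). Among the 6 libraries, docetaxel replicate 2 also had the most counts of KRT15 (171), KRT10 (4558), KRT13 (59) and KRT8P3 (355). Of KRT86, KRT16, KRT83 and KRT8P33 another library had the most, and of KRT8P42 docetaxel replicate 2 had the fewest (92). Of the called members it had the most counts of KRT8 (82400), KRT7 (21675) and KRT17 (286), but not of KRT18 or KRT80.

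The counts of KRT81 are also uncertain by sequence. Its neighbour KRT86, another hair keratin, shares 94.2% of the aligned coding bases, and 33.4% of all 150-base windows of KRT81 occur unchanged in KRT86. Reads of 150 bases from such windows match both genes. The stretches are bases 715 to 804 of each coding sequence (GENCODE release 29 on GRCh38), shown because only the 3 bases in capitals tell the genes apart there.
KRT81: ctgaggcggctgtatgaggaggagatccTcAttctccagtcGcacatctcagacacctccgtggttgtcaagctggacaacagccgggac
KRT86: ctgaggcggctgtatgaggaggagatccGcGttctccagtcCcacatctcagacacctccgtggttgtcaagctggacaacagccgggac
KRT86 had 89, 131 and 67 counts in control and 124, 110 and 144 with docetaxel, a log2 fold change of 0.50 (edgeR adjusted p = 0.137). KRT83, the next hair keratin in the cluster, had 51 to 67 counts in each library and a log2 fold change of 0.04 (adjusted p = 0.952). Of the 26 hair and root sheath keratins 18 had no counts, and edgeR called 0 of the 3 tested, with 2 higher by an unadjusted p below 0.05. Of all 18040 tested genes 2717 were higher by that measure. By adjusted p limma-voom called 0 of these keratins, and it had 1 higher by an unadjusted p below 0.05. DESeq2 gave KRT81 no adjusted p and so could not have called it. By an unadjusted p below 0.05 DESeq2 had 0 of these keratins higher.

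VIM (ENSG00000026025, chromosome 10, 17228259 to 17237593, plus strand) had 14350, 15686 and 15413 counts in control and 13724, 13436 and 13830 with docetaxel. In TMM-scaled CPM these were 364, 368 and 374 in control and 357, 353 and 358 with docetaxel, so that every docetaxel library lay below every control library. The means were 369 ± 4.81 and 356 ± 2.98 CPM (SD, n = 3 each). The log2 fold change of -0.05 ± 0.038 (SE) did not pass the test (edgeR adjusted p = 0.422), and its 95% confidence interval ran from 0.914-fold to 1.02-fold. The sign was the same under all 16 alternatives, from -0.09 to -0.02, and none of them called it. An antisense gene, VIM-AS1, shares 641 exon bases with VIM, 12.4% of the VIM exon bases, and 33.1% of the 150-base windows of the VIM coding sequence occur in another gene's transcripts. VIM-AS1 had 69, 71 and 73 counts in control and 116, 61 and 69 with docetaxel, far below VIM, and did not pass the test (edgeR adjusted p = 0.516).

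A ratio to VIM within a library does not depend on how libraries are scaled. KRT8 over VIM, per kilobase, was 3.84, 3.56 and 3.69 in control and 4.41, 4.61 and 4.46 with docetaxel. KRT18 over VIM was 2.84, 2.92 and 2.93 in control and 3.28, 3.29 and 3.41 with docetaxel. KRT7 over VIM was 1.53, 1.39 and 1.47 in control and 1.87, 2.09 and 1.92 with docetaxel. In each of these ratios the docetaxel libraries lay above all control libraries. The same held for KRT80, at 0.102 ± 0.009 and 0.129 ± 0.0006, for KRT17, at 0.0226 ± 0.0032 and 0.0351 ± 0.0018, and for KRT81, at 0.0114 ± 0.0021 and 0.0179 ± 0.0065. In KRT81 the highest control library and the lowest docetaxel library stood at 0.0137 and 0.0139, whereas the CPM of KRT81 itself overlapped between the groups. All of these ratios share the denominator VIM, which in TMM-scaled CPM was lower in every docetaxel library than in every control library. Their separations are therefore not independent of each other. VIM and the keratins differ in GC content, and the ratios were taken without the GC and length offsets. They were not tested, nor was the part of GC content in them.

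**Figure D3:**
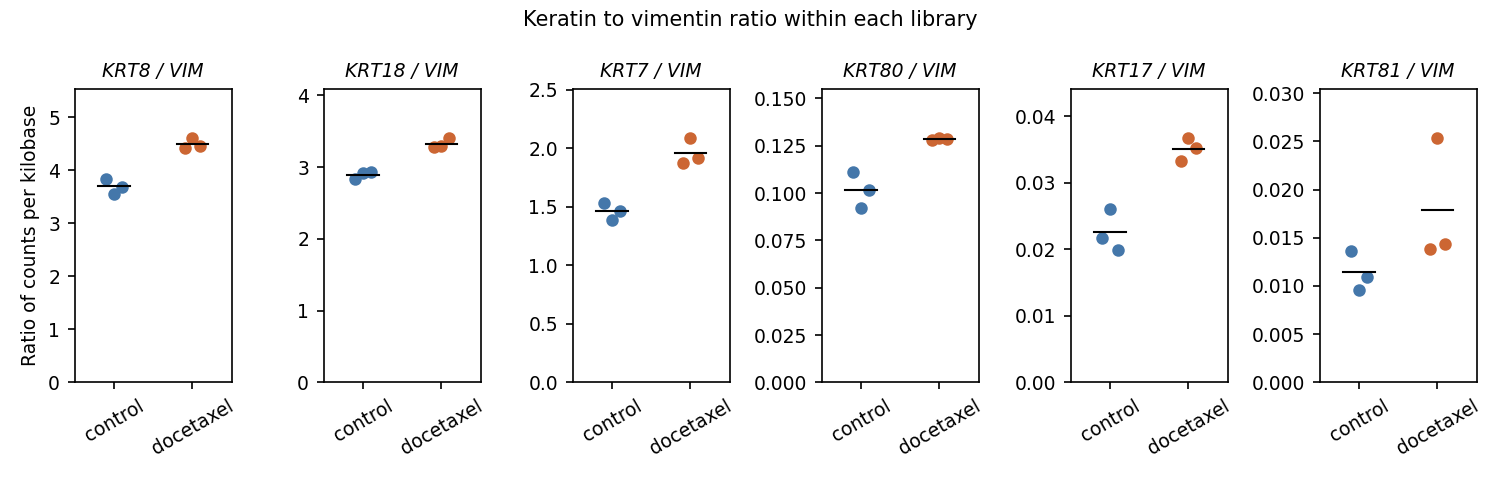
Ratio of each keratin gene to VIM in counts per kilobase of deposited gene length (vertical axes, from 0, one scale per panel), by group. Points are libraries and lines are group means. All docetaxel points lie above all control points, with KRT81 nearly touching at 0.0137 and 0.0139.

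In the wider keratin family, 55 genes other than pseudogenes and antisense rows had 25 with no counts at all, 12 with enough to test, and 5 called higher, which are the 5 members. Of the other 7 tested genes KRT81 is given above and 6 are not members, and none of these passed edgeR's test. KRT10, the type I keratin of differentiated epidermis, was the most abundant of the 6, at 95.1 ± 8.0 and 102.7 ± 14.7 CPM (SD, n = 3 each), or 0.11 in log2 fold change (adjusted p = 0.622). KRT13, a type I keratin of wet stratified epithelium, had 31, 16 and 27 counts in control and 34, 59 and 53 with docetaxel, without overlap in CPM. Its log2 fold change of 1.07 missed the threshold (adjusted p = 0.0542). KRT13 passed without control replicate 1 (adjusted p = 0.0439) or docetaxel replicate 1 (adjusted p = 0.0303). KRT15, a keratin of basal progenitors, and KRT16, a keratin of stressed epidermis, were at 0.45 and 0.35 (adjusted p = 0.191 and 0.339). By class, edgeR called 3 of the 3 tested simple keratins and 2 of the 6 tested stratified keratins higher, with medians of 0.23 and 0.40. Over all tested genes 9.14% were called higher and the median was 0.01. With the offsets 2 of the simple and 0 of the stratified keratins were called. KRT10-AS1, which overlaps KRT10 in position on the other strand, did not pass (adjusted p = 0.352) but was called higher with the offsets, at 0.27 (adjusted p = 0.0106). The keratin classes share members with the gene set itself, so their counts are not independent of it.

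**Figure D4:**
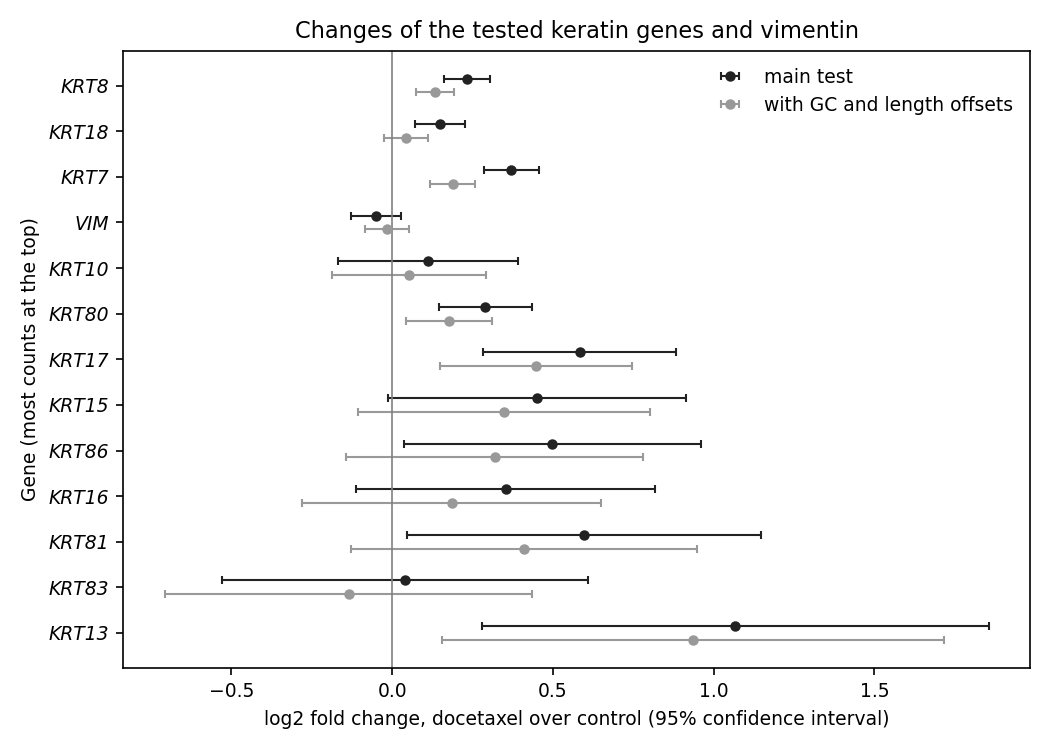
log2 fold change of docetaxel over control (horizontal axis) with 95% confidence intervals for the 12 tested keratin genes and VIM, ordered by counts. Black points are the main test and grey points the fit with GC and length offsets. The intervals are narrow for KRT8, KRT18, KRT7 and VIM and wide for KRT13 and KRT81, and each of the 5 called keratins lies nearer to 0 with the offsets.

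Among the other cytoplasmic intermediate filament genes, 8 of 12, VIM included, were tested, with a median log2 fold change of -0.00. Of all tested genes 9.14% were called higher and 7.82% lower. NES, which encodes nestin, was called higher, from 55.7 ± 3.1 to 63.6 ± 3.7 CPM (SD, n = 3 each), 1.14-fold (edgeR adjusted p = 0.0219), and 0 genes were called lower. That count was also 0 by DESeq2, by limma-voom and with an unadjusted p below 0.05. NES lost its call with the offsets, at 0.05 (adjusted p = 0.723), with library-size scaling (0.0716), with the replicate block (0.0570), and without control replicate 2 (0.144), docetaxel replicate 2 (0.177) or docetaxel replicate 3 (0.0831). NEFH, the neurofilament heavy chain, did not pass (adjusted p = 0.568).

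Genes for proteins that anchor keratin filaments were called in both directions, beside 9.14% of all tested genes called higher and 7.82% lower. PLEC, JUP and PKP3, given below, lie in the quintile of the highest GC content, where 1038 of 3284 genes were called higher. DSC2 lies in the quintile of the lowest GC content, where 945 of 3285 genes were called lower. Of the plakins, which tie filaments to junctions and to other parts of the cytoskeleton, 7 of 8 were tested, with a median of -0.02. PLEC, which encodes plectin, was called higher, from 776 ± 19.7 to 888 ± 42.9 CPM, 1.14-fold (edgeR adjusted p = 6.94e-04). With the offsets PLEC was at 0.01 (adjusted p = 0.908), and EPPK1, a plakin repeat protein of epithelia chosen after its values were seen, was called lower at -0.19 (adjusted p = 0.0498). DSP, which encodes desmoplakin, the desmosomal anchor of keratins, measured 280 ± 8.9 and 270 ± 3.0 CPM and did not pass (adjusted p = 0.458). Of the desmosome genes 7 of 10 were tested, 2 were called higher and 3 lower, with a median of -0.13. JUP (plakoglobin) rose 1.15-fold and PKP3 (a plakophilin) rose 1.22-fold (edgeR adjusted p = 5.15e-04 and 8.59e-05). The desmosomal cadherins DSC2 and DSG2 fell by 0.52 and 0.38 on the log2 scale (adjusted p = 9.45e-04 and 0.0155), as did PKP2, chosen after its values were seen, by 0.27 (adjusted p = 0.0253). PKP2 lost its call with the offsets (adjusted p = 0.121), with the replicate block (0.0551), and without control replicate 2 (0.212) or 3 (0.0647) or docetaxel replicate 2 (0.0905) or 3 (0.0541). DSG2 lost its call without control replicate 2 (adjusted p = 0.0931) or docetaxel replicate 3 (adjusted p = 0.0698). With the offsets JUP and PKP3 were not called, and DSC2 and DSG2 were still lower, at -0.31 and -0.21 (adjusted p = 0.0413 and 0.0434).

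All 22 genes for proteins that bind or modify keratins or control their filaments were tested, 6 called higher and 4 lower, with a median of 0.00. Of all tested genes 9.14% were called higher and 7.82% lower. SFN, the 14-3-3 protein of stratified epithelium, rose 1.21-fold and PPP1CA, a phosphatase subunit, 1.18-fold. ROCK1 and ROCK2, kinases that phosphorylate vimentin and keratin, fell by 0.32 and 0.29 on the log2 scale. SFN and PPP1CA lie in the quintile of the highest GC content, where 1038 of 3284 genes were called higher. ROCK1 and ROCK2 lie in that of the lowest, where 945 of 3285 genes were called lower. With the offsets edgeR called 0 of the 22, and by an unadjusted p below 0.05 it had 4 higher and 2 lower. Of 24 transcription factors described as regulators of vimentin or keratin genes, 20 were tested, 7 called higher and 4 lower. Their median was -0.03, and the shares of all tested genes are those just given. The largest changes were in the AP-1 genes FOS, from 16.7 ± 0.3 to 69.5 ± 2.5 CPM (4.17-fold), FOSB (3.99-fold), JUN, from 22.0 ± 2.2 to 62.8 ± 0.8 CPM (2.85-fold), and JUNB (1.67-fold). These 4 were also called higher with the offsets. JUND, KLF4 and SNAI1, chosen after their values were seen, were the other factors called higher. With the offsets they were not called (edgeR adjusted p = 0.797, 0.143 and 0.391). TFAP2A (AP-2 alpha), KLF5, ETS2 and SP3, chosen after their values were seen, fell by 0.28, 0.40, 0.21 and 0.36 on the log2 scale. The first 3 were called lower with the offsets too, at -0.27, -0.37 and -0.20 (edgeR adjusted p = 5.61e-05, 0.00334 and 0.00434). SP3 lost its call with the offsets, at -0.14 (adjusted p = 0.264). ZEB1, a repressor of epithelial genes, had a log2 fold change of -0.29 without overlap between the groups, did not pass (edgeR adjusted p = 0.0819), and passed as lower without docetaxel replicate 1 (adjusted p = 0.0275). With the offsets ZEB1 was at -0.09 (adjusted p = 0.790). SNAI1, another repressor of epithelial genes, went the other way and was called higher without overlap between the groups. Its log2 fold change was 0.32 (edgeR adjusted p = 0.0316), and 0.18 with the offsets. Any part of these factors in the keratin changes was not tested.

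Marker lists of other cell types were set beside these values, and beside the 9.14% of all tested genes called higher and 7.82% called lower. Of 15 epithelial markers outside the keratins, 7 were tested and ELF3, an epithelial transcription factor, was called higher (1.15-fold, edgeR adjusted p = 0.0219). ELF3 lost its call without any 1 of the libraries other than control replicate 3, with adjusted p from 0.0529 to 0.0931. Their summed level was 134 to 138 CPM in control and 144 to 147 CPM with docetaxel, and none of the 15 was at 0 counts in all libraries. This sum and those of the lists below are CPM by library total, without TMM scaling. Of 18 mesenchymal and fibroblast markers, 10 were tested and COL5A1, a fibrillar collagen, was called higher (1.16-fold, edgeR adjusted p = 5.93e-04). None was called lower, with ZEB1, given above, lower by an unadjusted p below 0.05. Their summed level was 553 to 572 CPM in control and 573 to 617 CPM with docetaxel, and none was at 0 counts in all libraries. Of 11 leukocyte and endothelial markers, 5 were tested and CD14 was called higher (1.70-fold, edgeR adjusted p = 0.0377), with a summed level of 4.44 to 5.78 CPM in control and 5.59 to 7.78 CPM with docetaxel. CD14 lost its call without any 1 of the libraries other than docetaxel replicate 1, with adjusted p from 0.0567 to 0.227. It also lost it with limma-voom (0.0627), library-size scaling (0.0511), no filter (0.0730) and the replicate block (0.0686). By adjusted p DESeq2 called 0 of these markers higher, and by an unadjusted p below 0.05 it had 1 higher. DESeq2 leaves some genes with few counts without an adjusted p, as with KRT81. Its 0 is therefore not counted against the call of CD14. MS4A1 was at 0 counts. With the offsets none of the 3 calls was made. The part of these markers in the keratin and vimentin values was not tested.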

How the data were processed

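The labels give 6 poly(A) RNA libraries, read as pairs of 150 bases. A single table of raw counts per gene was deposited by the authors, made with featureCounts 2.0.1 on GRCh38, with MultiQC 1.11 reports, per the submitters' processing notes. Not given in the sources used here are the aligner, annotation release, strand setting and treatment of reads with several matches. Columns were matched to samples by library name.

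Members were matched by symbol. Coordinates, transcripts and GC content came from GENCODE release 29, with a GC value for 91.0% of tested genes and each tested member. Tests used edgeR 4.0.16 in R 4.3.3: filterByExpr, TMM, glmQLFit with robust estimation and glmQLFTest. The code was tested on simulated data. Offsets came from a loess fit (span 0.5) of log2 CPM, as its deviation in each library from the gene's mean, against GC content and log2 length, and genes with no GC value had no correction. Alternatives also used DESeq2 1.42.0, limma 3.58.1, other scalings and filters, a replicate block, glmTreat and each library left out. Shared sequence was found by exact match on both strands.

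Named were all members, other keratin rows with at least 10 counts in 3 libraries, and up to 4 genes with the smallest p of each of 11 lists. Some were left out for brevity, and 1 marker and 1 pair of sequences are not reported here. The members and lists were chosen with earlier results of these data known.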

Additional observations from a re-analysis of the deposited data

How the results depend on the processing

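Setting each tested member under each alternative against the result as reported, 101 values kept the call and direction, 10 lost the call and 0 changed sign. KRT8 and KRT7 lost it under glmTreat alone, KRT17 and KRT80 under glmTreat and the GC and length offsets, and KRT18 under these and without control replicate 1 or docetaxel replicate 3. The members called higher were 2 with the offsets and 0 against a fold of 1.5. Over all genes, scaling by library size gave 1096 genes higher and 1866 lower, the offsets 496 higher and 293 lower, and glmTreat against a fold of 1.5 gave 6 higher and 0 lower, with 90 and 60 by an unadjusted p below 0.05. DESeq2 gave 1481 higher and 1498 lower and limma-voom 1588 and 1351. Leaving out 1 library gave between 990 and 1397 genes higher and between 740 and 1841 lower. The lowest counts were without control replicate 2 in both directions, and 768 were lower without docetaxel replicate 3. Libraries left out mean fewer samples, and the cause of the other changes was not tested. EPPK1, not called, changed from 0.00 to -0.19 with the offsets. The median over all tested genes stayed within 0.1 of 0 on the log2 scale.

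No strong pairing of the libraries by replicate number was seen, and the labels do not say whether a number marks a shared culture or day. Deviations of libraries with the same number correlated at 0.0080, 0.0070 and 0.0157, although every library correlated best with its own number. With the replicate number as a block, 1283 genes were higher and 1106 lower, and the members' counts were 5 higher and 0 lower.

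Depth limits KRT5, KRT14 and KRT19, where a few counts set every value, and KRT81 and KRT13, with wide intervals.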
